A study of Mus musculus with 6 samples.

Results

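The JAK-STAT genes described here are 9 rows of the count table: the kinases Jak1, Jak2, Jak3 and Tyk2, the transcription factors Stat2, Stat3 and Stat6, and the feedback inhibitors Socs1 and Socs3. They were chosen by symbol among 55401 gene IDs, each matched a single ID, and all 9 passed the filter on low counts. Poly(A) RNA of whole mouse kidneys was sequenced in 3 libraries from mice with diabetic kidney disease (DKD) and 3 from control mice. The labels give the group under a genotype tag as DKD or Control and name kidney as the tissue. Strain, sex, age, the way diabetes was brought about and any treatment are not given in the labels, nor whether each library is a separate animal. Each p-value therefore sets the difference between groups against the spread among libraries of a group, whatever the source of that spread. The stated subject of the series is histone methyltransferases in DKD.

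JAK kinases sit on the inner tails of cytokine receptors, and binding of a cytokine brings them together so that they phosphorylate each other, the receptor and STAT proteins. Phosphorylated STATs pair, enter the nucleus and activate genes, among them those of the SOCS proteins, which bind JAKs and receptors and shut the signal off. Raised transcript levels of this pathway have been described in kidneys of people with DKD, and JAK inhibition has been tried as a treatment.

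DKD replicate 1 stood apart from the other DKD libraries. It carried liver transcripts, with 4159 CPM summed over 12 hepatocyte genes against 200 to 405 CPM in the other 5 libraries, where CPM is a gene's count relative to the library's total count, brought to a common scale with the library's normalisation factor. Alb was at 2321 CPM there, and Ahsg, Mup20 and Tat, which had no count in any other library, were at 376, 20.0 and 26.4 CPM. Its 12 macrophage and myeloid genes summed to 145 CPM, beside 284 and 355 CPM in DKD replicates 2 and 3 and 143 to 171 CPM in controls. Csf1r was 89.1 CPM of that 145. It did not follow the sum, at 58.2 and 66.3 CPM in DKD replicates 2 and 3 and 74.1, 62.3 and 72.7 CPM in controls. Its log2 fold change was 0.03 with all libraries and -0.17 without DKD replicate 1. Without Csf1r, the other 11 genes summed to 55.9, 226 and 289 CPM in DKD replicates 1 to 3. They summed to 68.9, 81.5 and 97.8 CPM in control replicates 1 to 3, so that DKD replicate 1 was the lowest library. Its 12 T, NK and B cell genes summed to 5.79 CPM, beside 22.0 and 21.4 CPM in the other DKD libraries and 5.28 to 7.32 CPM in controls. Kidney epithelial genes were abundant in every library, with Umod of the loop of Henle at 2258 to 3566 CPM. Results of the 9 genes are therefore given with and without DKD replicate 1, and those of other genes in either or both fits. Totals were 64816622 to 77417638 counts per library.

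With all 6 libraries, 0 of the 9 genes passed an adjusted p of 0.05 in edgeR's quasi-likelihood test, where 0 of 19197 genes did (0%). At an unadjusted p under 0.05, 2 members (Jak3 and Stat2) were higher in DKD and 0 lower, beside 19.2% of all genes in either direction and 12.2% higher. CPM values did not overlap between groups for 2 members that were higher in DKD, Tyk2 and Stat2, against a background of 13.8% of all genes, and for 1 that was lower, Jak1, against 11.5%, or 25.4% in either direction. Without DKD replicate 1, the same test called 4 of 9 members higher and 0 lower, where it called 15.5% of 19989 genes, 9.67% higher and 5.84% lower. Those 4 were Jak3, Stat2, Stat3 and Socs3. With all 6 libraries and weights that count unusual libraries less, limma-voom called Jak3, Stat2 and Stat3 higher, where it called 9.94% of all genes higher. DESeq2 called Stat2, where it called 6.22% of all genes higher. The median log2 fold change of the 9 was 0.47 with all libraries and 0.69 without DKD replicate 1, beside 0.02 over all genes in both fits.

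Differences in level between the 9 genes were read per kilobase of annotated exon. In control kidneys Jak1 averaged 19.0 ± 0.935 CPM per kilobase and Stat6 18.0 ± 0.562 (SD, n = 3), and their libraries overlapped. Jak2 followed at 8.64 ± 0.479 and Stat3 at 6.22 ± 0.794 CPM per kilobase, without overlap between them. Stat2 at 3.25 ± 0.855, Jak3 at 3.18 ± 0.715 and Tyk2 at 3.00 ± 0.210 CPM per kilobase could not be ranked beyond their spread. Socs3 at 0.694 ± 0.264 and Socs1 at 0.178 ± 0.0345 CPM per kilobase were the lowest of the 9 in every library. The order in DKD kidneys placed Stat3 (8.62 ± 2.57) and Jak2 (7.95 ± 1.21) at overlapping levels, and Stat2 at 6.16 ± 1.76 CPM per kilobase, above Tyk2 at 3.45 ± 0.142 in each DKD library.

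Promoter sequence is shown for 3 members because these alone held a match to the DNA motifs that STAT complexes are known to bind, out of 9 members found in the RefSeq promoter table (GRCm38.p6). The 250 bases before the start were searched on both strands for TTCNNNGAA, the site of STAT dimers, for the wider site preferred by STAT6, which is TTC and GAA with any 4 bases between them, and for GAAA and GAAA with any 2 bases between, the core of the element bound by the interferon-activated complex of STAT2 and IRF9. The TTC motifs read the same on both strands. Capitals mark the matches, and the coordinates are of the reference table, not of the build named for the counts.
Stat2, chr10:128270248-128270497, + strand: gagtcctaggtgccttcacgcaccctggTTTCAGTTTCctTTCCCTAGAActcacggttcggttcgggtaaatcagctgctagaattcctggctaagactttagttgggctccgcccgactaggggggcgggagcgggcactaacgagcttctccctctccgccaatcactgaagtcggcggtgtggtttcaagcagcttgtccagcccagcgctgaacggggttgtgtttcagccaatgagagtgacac
Socs1, chr16:10785537-10785786, - strand: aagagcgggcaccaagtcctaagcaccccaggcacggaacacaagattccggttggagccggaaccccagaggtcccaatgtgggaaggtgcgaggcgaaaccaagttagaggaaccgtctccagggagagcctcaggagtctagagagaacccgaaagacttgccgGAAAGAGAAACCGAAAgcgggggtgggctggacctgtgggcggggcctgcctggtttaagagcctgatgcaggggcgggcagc
Socs3, chr11:117969367-117969616, - strand: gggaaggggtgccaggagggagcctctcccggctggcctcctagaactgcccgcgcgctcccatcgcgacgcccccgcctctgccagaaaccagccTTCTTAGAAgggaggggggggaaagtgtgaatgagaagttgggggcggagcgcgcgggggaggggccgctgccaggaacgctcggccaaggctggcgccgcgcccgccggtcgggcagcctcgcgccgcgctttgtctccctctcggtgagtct

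The Socs3 window held TTCTTAGAA at 154 to 146 bases before the start. The Socs1 window held 2 overlapping matches to the interferon element, GAAAGAGAAA at 83 to 74 and GAAACCGAAA at 77 to 68 bases before the start. The Stat2 window held TTTCAGTTTC, the interferon element on the opposite strand, at 222 to 213 bases and TTCCCTAGAA at 210 to 201 bases before the start. Over all 32851 promoters in the table, TTCNNNGAA was found in 7.02%, the wider site in 5.85% and the interferon element in 2.98%. Among 26 promoters of the listed interferon target genes, 10 held the interferon element (38.5%) and 7 held TTCNNNGAA (26.9%). Among 27 promoters of the listed STAT3 target genes, 1 held the interferon element (3.7%) and 6 held TTCNNNGAA (22.2%). The other 6 members had no match in this window. A match describes letters in this window and does not show binding.

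Of the 4 kinases, Jak3 rose in DKD once DKD replicate 1 was left out, and the other kinases did not pass the test. JAK3 pairs with the common gamma chain of interleukin receptors and is best known from lymphocytes. Its levels were 20.4, 28.2 and 30.2 CPM in DKD replicates 1 to 3 and 13.5, 16.6 and 21.1 CPM in control replicates 1 to 3. DKD replicate 1 lay just under control replicate 3, and the other DKD libraries lay above all controls. The log2 fold change was 0.63 ± 0.21 (SE; adjusted p = 0.184 with edgeR) with all libraries and 0.77 ± 0.18 (adjusted p = 0.0333 with edgeR) without DKD replicate 1.

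The receptor partner of JAK3, Il2rg, had 2.82, 6.54 and 9.66 CPM in DKD kidneys and 2.15, 3.00 and 2.93 CPM in control kidneys. Without DKD replicate 1 it rose by 1.58 ± 0.25 on the log2 scale (SE; adjusted p = 0.0101 with edgeR). Per kilobase, Jak3 was 3.23, 1.92 and 1.40 times as high as Il2rg in DKD replicates 1 to 3 and 2.79, 2.46 and 3.20 times as high in control replicates 1 to 3. The leukocyte marker Ptprc (CD45) had 6.55, 24.6 and 28.5 CPM in DKD kidneys and 7.12, 9.0 and 10.2 CPM in controls. The part of leukocyte RNA in the level of Jak3 was not tested. In bulk kidney, more cells of a type and more RNA per cell cannot be told apart.

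Jak1, used by interferon, interleukin-6 family and common gamma chain receptors alike, was the most abundant kinase. It had 115, 117 and 124 CPM in DKD kidneys and 129, 140 and 142 CPM in control kidneys, with no overlap between groups. Its log2 fold change of -0.21 ± 0.09 (SE; 95% interval -0.42 to 0.00) did not pass the test (adjusted p = 0.260 with edgeR), nor did -0.19 ± 0.10 without DKD replicate 1 (adjusted p = 0.222 with edgeR). Scaled by library size alone, which put the median of all genes at 0.17, Jak1 was at -0.06.

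Jak2, the kinase of the growth hormone, leptin and erythropoietin receptors, had 47.0, 36.5 and 36.4 CPM in DKD kidneys and 41.7, 42.5 and 46.2 CPM in control kidneys. DKD replicate 1 was the highest of the 6 libraries and the other DKD libraries were the lowest. The fitted change was -0.12 ± 0.12 (SE; 95% interval -0.41 to 0.17, log2 scale; adjusted p = 0.619 with edgeR), and -0.26 ± 0.09 without DKD replicate 1 (adjusted p = 0.106 with edgeR).

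Tyk2, a kinase of the type I interferon and interleukin-12 receptors, had 22.6, 24.5 and 24.0 CPM in DKD kidneys and 21.9, 20.8 and 19.1 CPM in control kidneys, with each DKD library above every control. Its log2 fold change of 0.20 ± 0.10 (SE, 95% interval -0.03 to 0.44) did not pass the test (adjusted p = 0.309 with edgeR). Neither did 0.23 ± 0.11 without DKD replicate 1 (adjusted p = 0.216 with edgeR).

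Counted per kilobase within each library, which needs no scaling between libraries, Jak1 made up 49.1%, 50.2% and 51.2% of the 4 kinases' transcripts in DKD replicates 1 to 3 and 56.1%, 57.0% and 55.3% in control replicates 1 to 3. Jak3 made up 11.8%, 16.3% and 16.8% in DKD and 7.88%, 9.13% and 11.1% in control kidneys. Tyk2 made up 10.5% ± 0.416 in DKD and 8.91% ± 1.1 in control kidneys (SD, n = 3 each). The groups did not overlap for these 3 shares, DKD replicate 1 included. The 4 shares of a library are parts of the same sum, so a higher share of 1 kinase lowers the others. The 3 are therefore not separate results. Each gave a two-sided exact permutation p of 0.1, the smallest that 3 against 3 libraries allow, and 0.133 after Benjamini-Hochberg adjustment over 4 kinases. The Jak2 share overlapped, at 21.6% to 28.9% in DKD and 24.9% to 26.0% in control kidneys (exact permutation p = 0.6).

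**Figure D1:**
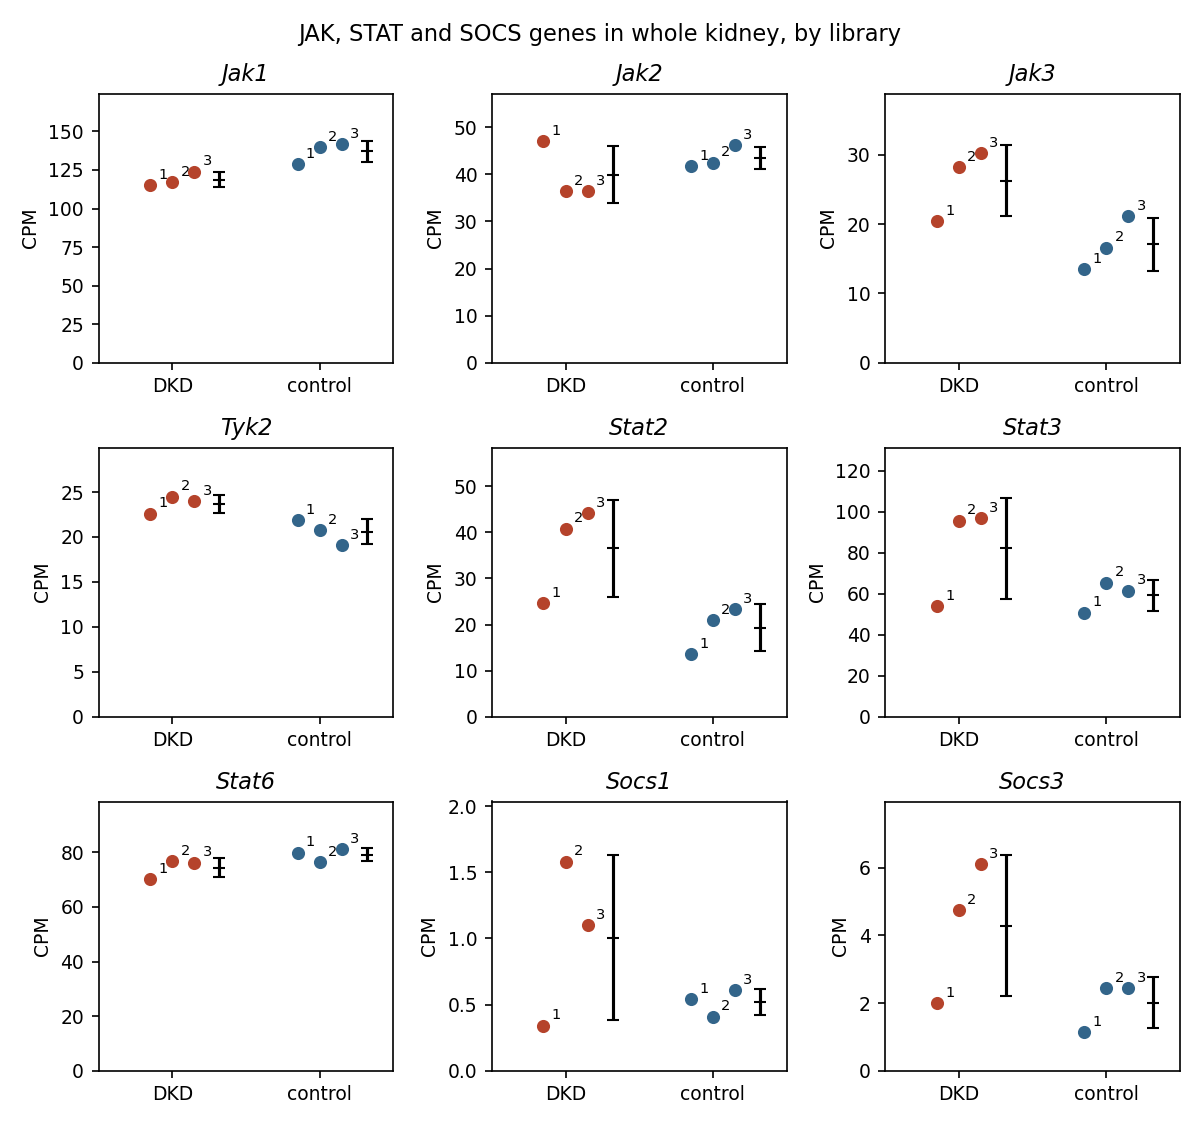
CPM of the 9 genes in each library (points, numbered by replicate), DKD left and control right, with the mean and SD of each group as a bar; each vertical axis starts at 0. In DKD, replicate 1 is the lowest point for every gene but Jak2, where it is the highest; Stat2 and Tyk2 have all 3 DKD points above the controls and Jak1 has them below.

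Of the 3 STAT genes, Stat2 was higher in each DKD library than in any control. STAT2 works with IRF9 in the complex that carries type I interferon signals to DNA, and its gene is itself induced by interferon. Stat2 had 24.6, 40.8 and 44.2 CPM in DKD kidneys and 13.6, 20.9 and 23.4 CPM in control kidneys. DKD replicate 1 was close to the highest control, and the other DKD libraries lay well above. Stat2 had a log2 fold change of 0.92 ± 0.27 (SE; 95% interval 0.27 to 1.57; adjusted p = 0.162 with edgeR). It was 1.13 ± 0.21 without DKD replicate 1, where it passed (adjusted p = 0.0155 with edgeR).

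Stat3, which carries signals of the interleukin-6 family, leptin and interleukin-10, had 53.8, 95.6 and 96.9 CPM in DKD kidneys and 50.8, 65.4 and 61.5 CPM in control kidneys. DKD replicate 1 lay inside the controls and the other DKD libraries lay above them. For Stat3 the log2 fold change was 0.47 ± 0.23 with all libraries (SE; adjusted p = 0.312 with edgeR) and 0.69 ± 0.12 without DKD replicate 1 (adjusted p = 0.0136 with edgeR). Stat3 overlaps the Stat5a gene on the opposite strand in the annotation. Stat5a had 21.1, 24.9 and 21.4 CPM in DKD kidneys and 19.7, 23.8 and 16.7 CPM in control kidneys, and whether the counting used strand is not given in the sources used here. Jak1, Tyk2 and Stat6 also overlap a gene on the opposite strand (Raver2, 1700084C06Rik and Nab2) and Jak3 overlaps Insl3 on its own strand, so the assignment of reads in those stretches is uncertain.

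Stat6, which carries interleukin-4 and interleukin-13 signals, had 70.3, 76.8 and 76.3 CPM in DKD kidneys and 79.9, 76.4 and 81.2 CPM in control kidneys. The log2 fold change of -0.09 ± 0.08 (SE, 95% interval -0.28 to 0.11) did not pass (adjusted p = 0.585 with edgeR). Neither did -0.06 ± 0.09 without DKD replicate 1 (adjusted p = 0.717 with edgeR). With all libraries, the upper end of the Stat6 interval lay below the lower end of that of Stat2, 0.27. Within the summed level of the 3 STAT genes per kilobase, Stat2 made up 16.1%, 20.0% and 21.3% in DKD and 8.91%, 12.7% and 13.7% in control kidneys, again without overlap. The Stat6 share was lower without overlap, at 61.9%, 50.8% and 49.6% in DKD and 70.4%, 62.6% and 63.9% in control kidneys. As parts of the same sum, these shares are tied to each other, and they were not tested.

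Other genes of the same layer were measured beside these. Irf9, the DNA-binding subunit of the complex that holds STAT2, had 22.3, 36.2 and 45.7 CPM in DKD kidneys and 15.9, 18.2 and 20.6 CPM in control kidneys. Its log2 fold change was 0.93 ± 0.25 (SE; adjusted p = 0.145 with edgeR), or 1.16 ± 0.15 without DKD replicate 1 (adjusted p = 0.00518 with edgeR). Stat4, which acts in T and NK cells, was low, at 0.158, 1.05 and 1.41 CPM in DKD and 0.219, 0.212 and 0.480 CPM in control kidneys. Stat5b, which answers growth hormone, had 46.5, 45.1 and 44.5 CPM in DKD and 48.9, 52.4 and 55.7 CPM in control kidneys, with a log2 fold change of -0.21 ± 0.08 (SE; adjusted p = 0.247 with edgeR).

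**Figure D2:**
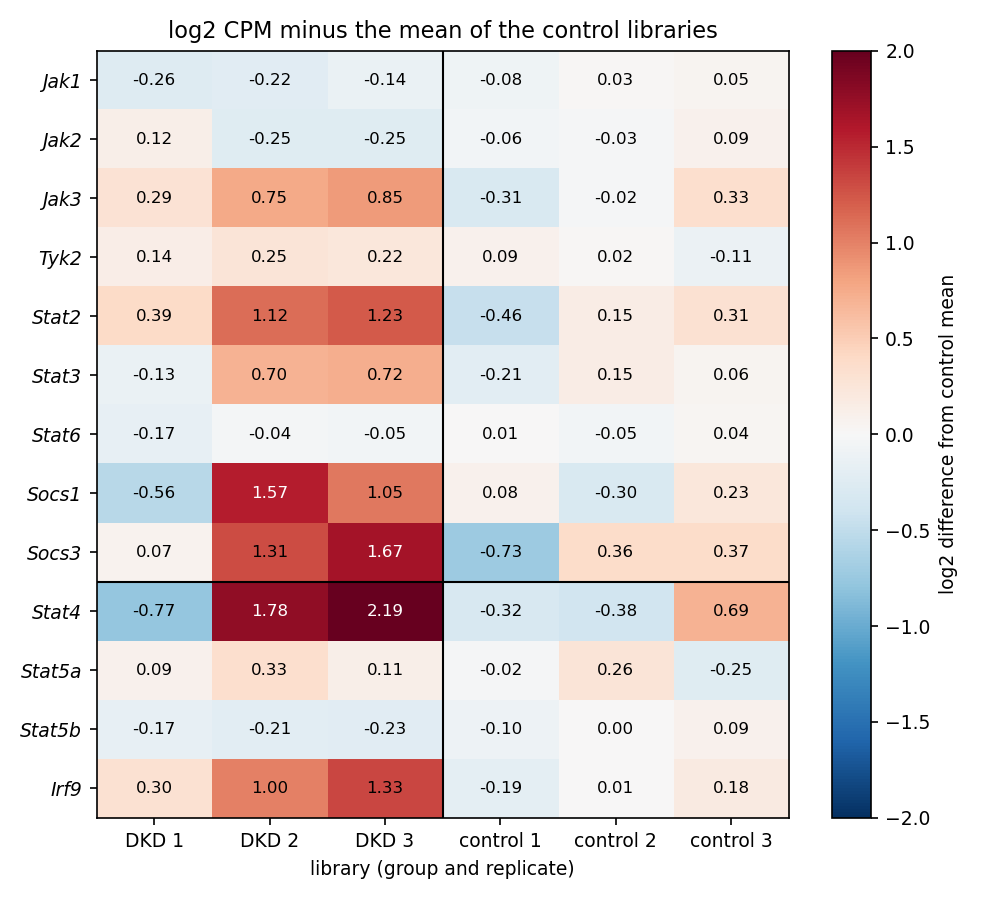
log2 CPM of each gene in each library minus the mean of the 3 control libraries, DKD libraries left of control libraries; the 9 genes stand above the line, Stat4, Stat5a, Stat5b and Irf9 below it. DKD replicates 2 and 3 are at 1.12 and 1.23 for Stat2 and at 1.31 and 1.67 for Socs3, while DKD replicate 1 is at 0.39 and 0.07.

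Both SOCS genes were low, and DKD replicates 2 and 3 held more of them than any other library. Socs3, an inhibitor induced through STAT3 that blocks interleukin-6 family and leptin receptors, had 2.00, 4.75 and 6.10 CPM in DKD kidneys and 1.13, 2.44 and 2.45 CPM in control kidneys. DKD replicate 1 lay inside the controls. Socs3 had a log2 fold change of 1.09 ± 0.48 (SE; 95% interval -0.03 to 2.22; adjusted p = 0.268 with edgeR), and 1.42 ± 0.36 without DKD replicate 1, where Socs3 rose (adjusted p = 0.0389 with edgeR).

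Socs1, which restrains interferon signalling by blocking JAK catalysis, rested on few reads: 26, 122 and 93 counts in DKD replicates 1 to 3 and 32, 27 and 43 counts in control replicates 1 to 3. These are 0.341, 1.58 and 1.10 CPM in DKD and 0.539, 0.409 and 0.607 CPM in control kidneys, so that DKD replicate 1 was the lowest of the 6 libraries. The log2 fold change of 0.96 ± 0.57 (SE; 95% interval -0.38 to 2.30; adjusted p = 0.391 with edgeR) did not pass, nor did 1.36 ± 0.38 without DKD replicate 1 (adjusted p = 0.0544 with edgeR). Without DKD replicate 2 it was 0.47 (adjusted p = 0.796 with edgeR).

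**Figure D3:**
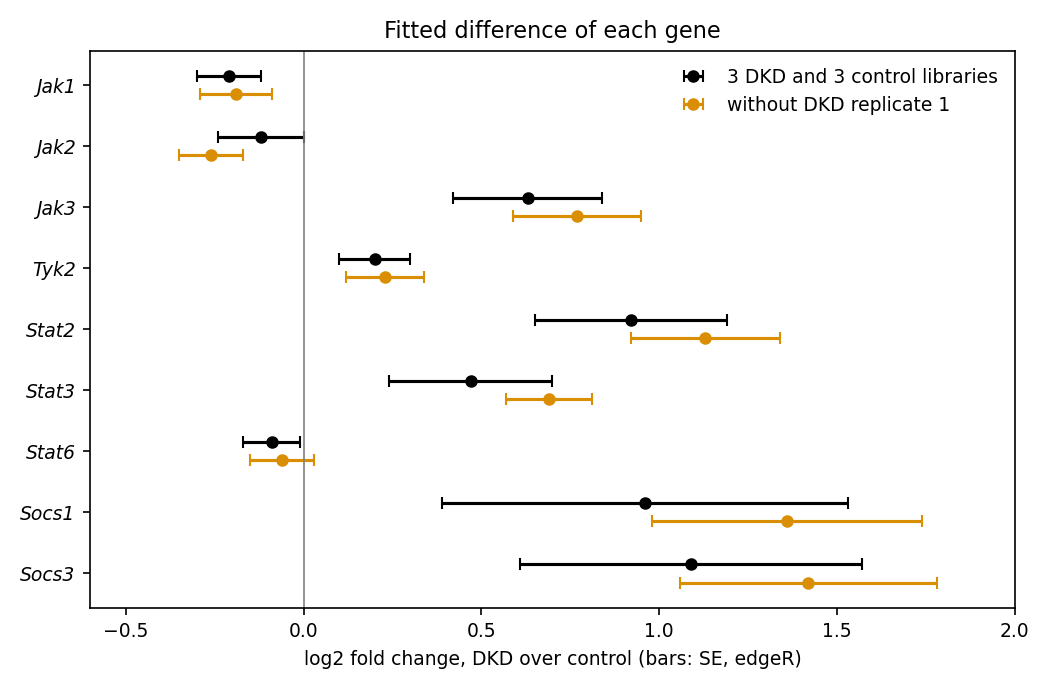
Fitted log2 fold change of DKD over control for each gene with its SE (bars), from all 6 libraries (black) and without DKD replicate 1 (orange). Jak3, Stat2, Stat3, Socs1 and Socs3 lie above 0.4 in both fits, and Jak1, Jak2, Tyk2 and Stat6 lie within 0.3 of 0.

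Over the 6 libraries, the listed pathway gene outside the 9 whose log2 CPM ran closest to that of Socs3 was Cxcl10 (Pearson r = 0.985, over 121 genes compared). The closest to Stat2 was Hif1a (r = 0.993), to Stat3 Il2rb (r = 0.987), to Jak3 Rsad2 (r = 0.984) and to Socs1 Ciita (r = 0.954). For Jak2 it was Socs4 (r = 0.977), for Tyk2 Cdh1 (r = 0.955), for Jak1 Stat5b (r = 0.888) and for Stat6 Pias1 (r = 0.749). These are descriptions: the points share libraries and scaling, and DKD replicates 2 and 3 lie away from the rest for many genes.

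The wider pathway was read from 7 lists that name 158 other genes, 5 of them in several lists; 121 passed the filter on low counts. None passed with all 6 libraries in edgeR, where 47 were higher and 4 lower at an unadjusted p under 0.05. Over all genes these shares were 12.2% higher and 19.2% in either direction. The median log2 fold change of the list genes was 0.63 over 121 tested, and 0.97 over 128 without DKD replicate 1. Some genes passed the filter only in the latter fit. Without DKD replicate 1, edgeR called 50 higher and 4 lower of 128 tested, beside 9.67% of all genes higher and 5.84% lower, the lower ones being Il15, Il11ra1, Ghr and Alox15. The lists were written with earlier results of these kidneys known and give no independent support.

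Of 32 listed ligands, the cytokines and hormones that start the pathway, 11 passed the filter on low counts. Lif, leukaemia inhibitory factor, had 0.683, 2.76 and 2.85 CPM in DKD kidneys and 0.353, 0.212 and 0.677 CPM in control kidneys, and rose by 2.74 ± 0.47 on the log2 scale without DKD replicate 1 (SE; adjusted p = 0.0121 with edgeR). Clcf1, another ligand that acts through the shared receptor chain gp130 and STAT3, had 5.19, 13.3 and 13.2 CPM in DKD and 4.14, 4.24 and 4.66 CPM in control kidneys, and rose by 1.60 ± 0.16 without DKD replicate 1 (SE; adjusted p = 0.00237 with edgeR). With all libraries their adjusted p-values were 0.151 and 0.146 with edgeR. Il6 itself had 0, 4 and 4 counts in DKD kidneys and 0 counts in each control kidney, and Ifng 0, 0 and 22 counts in DKD and 0, 12 and 0 counts in control kidneys. Il15, a ligand that signals through JAK1 and JAK3, was lower, at 13.7, 10.7 and 10.2 CPM in DKD and 15.4, 18.7 and 14.2 CPM in control kidneys, and fell by 0.63 on the log2 scale without DKD replicate 1 (SE 0.16; adjusted p = 0.0418 with edgeR). Thpo, thrombopoietin, had 11.6, 10.7 and 9.01 CPM in DKD and 10.8, 13.1 and 13.8 CPM in control kidneys.

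Receptor subunits had a median log2 fold change of 0.44 over 35 tested genes, against 0.71 over 36 without DKD replicate 1. In the latter fit 13 rose and 2 fell, beside 9.67% of all genes called higher and 5.84% lower. Lepr, the leptin receptor, had 9.57, 7.25 and 12.1 CPM in DKD kidneys and 3.30, 3.14 and 5.54 CPM in control kidneys, a log2 fold change of 1.27 ± 0.30 (SE; adjusted p = 0.119 with edgeR). Unlike the STAT and SOCS genes, Lepr in DKD replicate 1 was between the other DKD libraries. Il6ra, the interleukin-6 receptor, had 4.18, 3.61 and 6.15 CPM in DKD and 1.85, 1.61 and 2.79 CPM in control kidneys (log2 fold change 1.16 ± 0.32, SE; adjusted p = 0.144 with edgeR), also with replicate 1 inside the DKD range. Csf2ra, a chain of the GM-CSF receptor of myeloid cells, had 8.13, 15.0 and 14.1 CPM in DKD and 4.46, 6.24 and 6.70 CPM in control kidneys (log2 fold change 1.10 ± 0.28, SE; adjusted p = 0.133 with edgeR).

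The receptor genes that fell without DKD replicate 1 were Il11ra1 and Ghr. Il11ra1, of the interleukin-11 receptor, had 66.7, 53.3 and 49.5 CPM in DKD and 89.0, 81.1 and 73.5 CPM in control kidneys, and fell by 0.67 on the log2 scale (SE 0.11; adjusted p = 0.0121 with edgeR). Ghr, the growth hormone receptor and the receptor with the highest CPM, had 885, 549 and 579 CPM in DKD and 886, 899 and 888 CPM in control kidneys, and also fell by 0.67 (SE 0.09; adjusted p = 0.00611 with edgeR). Ghr was named after its values were seen. It is also made in liver, whose transcripts DKD replicate 1 carried; their part in that value was not tested.

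Interferon target genes had the highest median log2 fold change of the 7 lists with all libraries, 1.59. All 26 listed genes were tested and fitted higher in DKD, as were 10059 of all 19197 genes, and 18 did not overlap between groups, beside 13.8% of all genes. Without DKD replicate 1, 21 of 26 rose, beside 9.67% of all genes called higher. Isg15, a ubiquitin-like protein, had 4.12, 9.77 and 10.9 CPM in DKD and 1.77, 1.71 and 1.14 CPM in control kidneys. Ifit3, which takes part in antiviral sensing, had 27.8, 58.6 and 56.5 CPM in DKD and 15.4, 17.1 and 16.4 CPM in control kidneys. Cxcl9, a chemokine induced by interferon gamma, had 4.37, 8.80 and 7.36 CPM in DKD and 1.08, 1.35 and 2.44 CPM in control kidneys. In these 3 genes DKD replicate 1 lay between the controls and the other DKD libraries, as Stat2 did. Ifit2 was an exception, at 0.289 CPM in DKD replicate 1 beside 33.7 and 31.6 CPM in the other DKD libraries and 7.78, 10.7 and 10.4 CPM in control kidneys; it was named after its values were seen.

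Target genes of STAT3 had a median log2 fold change of 0.63 over 24 tested. Of these, 9 rose and 0 fell without DKD replicate 1, beside 9.67% of all genes called higher and 5.84% lower. Lcn2, the tubular injury marker NGAL, had 1.96, 15.4 and 43.1 CPM in DKD kidneys and 1.06, 0.970 and 0.875 CPM in control kidneys, and rose by 4.91 ± 0.44 on the log2 scale without DKD replicate 1 (SE; adjusted p = 0.00213 with edgeR). Junb, an immediate early transcription factor, had 11.4, 22.3 and 23.8 CPM in DKD and 9.22, 9.09 and 9.52 CPM in control kidneys, and rose by 1.30 ± 0.12 (SE; adjusted p = 0.00189 with edgeR). Tnfrsf1a, a receptor of tumour necrosis factor, had 53.2, 67.6 and 73.8 CPM in DKD and 50.8, 41.6 and 48.5 CPM in control kidneys. Fgg, a fibrinogen chain, had 119, 33.2 and 37.5 CPM in DKD and 5.62, 6.83 and 8.13 CPM in control kidneys, and rose by 2.36 ± 0.17 without DKD replicate 1 (SE; adjusted p = 0.00109 with edgeR). Fgg is also made by hepatocytes, and the excess in DKD replicate 1 came with the hepatocyte genes given above; their part in it was not tested.

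Of 17 listed target genes of STAT6, 10 were tested, with a median log2 fold change of 0.45. Without DKD replicate 1 the median was 1.85 over 13 tested. Retnla, Chil3 and Ccl11 passed the filter only in this fit, through their counts in DKD replicates 2 and 3, so the medians cover different genes. Of the 13, 5 rose and 1 fell, beside 9.67% of all genes called higher and 5.84% lower. Retnla, at 0, 52 and 38 counts in DKD and 0 in each control kidney, was among those that rose. Mrc1, the macrophage mannose receptor, had 4.32, 7.54 and 13.1 CPM in DKD and 1.75, 2.88 and 3.37 CPM in control kidneys. Fn1, fibronectin, had 69.3, 32.2 and 54.7 CPM in DKD and 9.32, 13.4 and 13.2 CPM in control kidneys (log2 fold change 2.12 ± 0.30, SE, adjusted p = 0.103 with edgeR). Without DKD replicate 1 it rose by 1.85 ± 0.25 (SE, adjusted p = 0.00574 with edgeR). DKD replicate 1, with its hepatocyte transcripts, had the most Fn1, and their part in that value was not tested. Cdh1, E-cadherin, had 171, 209 and 188 CPM in DKD and 165, 147 and 142 CPM in control kidneys. Alox15, a lipoxygenase, went the other way, at 9.53, 0.234 and 0.0471 CPM in DKD and 15.6, 81.9 and 72.4 CPM in control kidneys (log2 fold change -4.12 ± 1.76, SE; adjusted p = 0.279 with edgeR), and it fell without DKD replicate 1 (adjusted p = 0.0227 with edgeR).

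Other inhibitors of the pathway showed little shift as a list, with a median log2 fold change of -0.05 over 17 genes. Without DKD replicate 1, 2 of the 17 were called higher, Usp18 and Ptprc, a share near the 9.67% of all genes called higher. Usp18, an interferon-induced protein that blocks the type I interferon receptor, had 4.26, 13.3 and 12.0 CPM in DKD and 2.47, 2.02 and 2.14 CPM in control kidneys, with a log2 fold change of 2.16 ± 0.42 (SE; adjusted p = 0.103 with edgeR) and 2.51 ± 0.18 without DKD replicate 1 (adjusted p = 0.00115 with edgeR). Pias3, an inhibitor of STAT3 binding to DNA, had 19.9, 20.0 and 16.9 CPM in DKD and 13.5, 15.9 and 14.9 CPM in control kidneys (log2 fold change 0.36 ± 0.12, SE; adjusted p = 0.195 with edgeR). Sh2b3, an adaptor that restrains JAK2, had 32.6, 29.3 and 31.0 CPM in DKD and 24.9, 26.1 and 27.8 CPM in control kidneys.

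**Figure D4:**
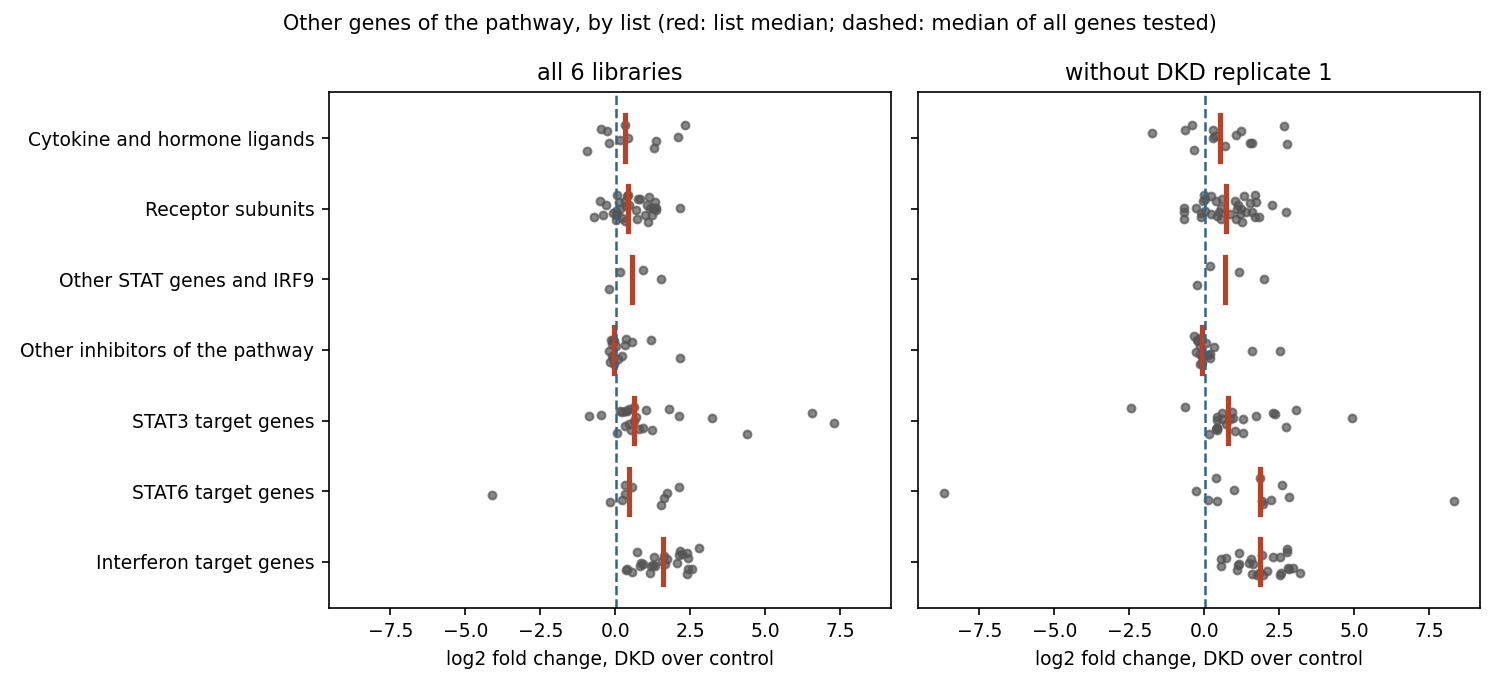
log2 fold change of DKD over control for each tested gene (points, spread vertically at random) of the 7 lists, with all 6 libraries on the left and without DKD replicate 1 on the right; red bars are list medians and the dashed line the median of all genes tested. The interferon target genes have a median of 1.59 with all libraries and 1.87 without DKD replicate 1, and the other inhibitors -0.05 and -0.08.

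The members that rose without DKD replicate 1 were measured beside changes in the markers of several cell types. Over all genes, the fit without DKD replicate 1 called 9.67% higher and 5.84% lower. With all libraries, 10059 of 19197 genes were fitted higher, and 13.8% were higher in DKD without overlap. With all libraries, 0 of the 12 macrophage and myeloid genes were called and 1 did not overlap between groups. Each was fitted higher in DKD, Csf1r by only 0.03 on the log2 scale. Without DKD replicate 1, 10 of the 12 rose. Summed, they were at 145 to 355 CPM in DKD and 143 to 171 CPM in control kidneys. Of the 12 T, NK and B cell genes, 0 were called with all libraries, all 12 were fitted higher in DKD and 3 did not overlap. Without DKD replicate 1, 7 rose. Summed, these genes were at 5.79 to 22.0 CPM in DKD and 5.28 to 7.32 CPM in control kidneys. DKD replicate 1 was set apart above partly by its low sums of both lists, so their counts without it give no independent support. Only Klrb1c of these 24 was at 0 in a library, DKD replicate 1. The 10 endothelial and stromal genes summed to 280, 322 and 394 CPM in DKD and 215, 236 and 267 CPM in control kidneys, without overlap; 9 were fitted higher and 5 rose without DKD replicate 1. The 12 genes of other kidney epithelium summed to 6437, 7118 and 6591 CPM in DKD and 5841, 5147 and 5893 CPM in control kidneys, and 4 rose without DKD replicate 1. Proximal tubule genes, summed over 10, were at 12257, 9259 and 9007 CPM in DKD and 14269, 13195 and 13314 CPM in control kidneys, and 6 of 10 fell without DKD replicate 1. The part of these cell types' RNA in the levels of Jak3, Stat2, Stat3 and Socs3 was not tested.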

How the data were processed

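The authors deposited raw read counts per Ensembl gene ID, not normalised, for 6 whole-kidney libraries of poly(A) RNA with strand-marked second strands, per the labels' protocols. Tools named in the submitters' processing notes are HISAT2, StringTie, fastp and edgeR, with build GRCm39; the sources used here do not give their roles, versions, annotation or strand setting. Symbols were matched for 55141 of 55401 IDs; exon lengths and overlaps came from GENCODE M21 (GRCm38), so levels per kilobase are approximate. Counts were tested in R 4.3.3 with edgeR 4.0.16 (robust quasi-likelihood test, two-sided, TMM factors, default filter, 3 DKD against 3 control libraries), and adjusted by Benjamini-Hochberg over 19197 genes. SEs and intervals come from the same test. Other settings tried were RLE factors, library size alone, other filters, DESeq2 1.42.0, limma 3.58.1 voom with sample quality weights, a replicate block and leaving out each library. All 9 members are named, as are Stat4, Stat5a, Stat5b and Irf9 and the pathway gene that ran closest to each member. Of each other pathway list, the genes past the threshold are named or, with none, up to 4 with the smallest p at a mean CPM of at least 1. From the lists, Il2rg, Il6, Ifng, Prlr, Lifr, Retnla, Chil3 and Ccl11 were named outside these rules, as were the genes marked as named or picked after their values were seen. A gene of these lists is not reported here. Members and lists were chosen with earlier results of these data known. Genes without a count can be present at up to 3 counts (0.0353 to 0.0505 CPM), which covers counting error only, since reads carry no molecular identifiers.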

Additional observations from a re-analysis of the deposited data

How the results depend on the processing

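The count of all genes called, 0 with edgeR, was 4 with no filter on low counts, 1749 with DESeq2 and 3397 with weighted limma-voom, and 0 to 3101 when 1 library was left out: 3101 without DKD replicate 1, 7 without control replicate 1 and 1 without DKD replicate 3. The count of members called, 0, was 1 with DESeq2 (Stat2), 3 with weighted limma-voom (Jak3, Stat2 and Stat3) and 0 to 4 with 1 library left out, 4 without DKD replicate 1 and 0 without each other library. That of the other pathway genes, 0, was 32 with DESeq2, 44 with weighted limma-voom and 0 to 54 with 1 library left out, 54 without DKD replicate 1. The weighted fit gave DKD replicate 1 a weight of 0.302, beside 0.502 to 2.07 for the other libraries. Library size alone moved the median of all genes to 0.17 and turned Jak2 to 0.02 and Stat6 to 0.07 on the log2 scale, both still below that median; the other member directions held under the alternatives run. Socs1 was left out by the filter of CPM 1 in 3 libraries. Replicate numbers are shared between groups, but deviations of same-numbered libraries correlated at 0.0271, 0.0221 and 0.0299, so the numbers were not taken to pair them, although each library correlated best with its own number. With the replicate block, 0 genes, 0 members and 0 other pathway genes were called. Socs1 had the fewest counts of the members, 26 to 122 a library.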

Other observations

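Cish, Socs2 and Bcl6 were picked after their values were seen. Cish, a feedback inhibitor of STAT5, had 72.5, 29.3 and 27.4 CPM in DKD replicates 1 to 3 and 17.7, 13.9 and 70.9 CPM in control replicates 1 to 3. Socs2, an inhibitor of growth hormone signalling, had 23.2, 13.9 and 11.2 CPM in DKD and 7.00, 10.5 and 15.6 CPM in control kidneys, so that the highest value of each group was in the library with the most Cish. In DKD that library was replicate 1, which carried hepatocyte transcripts. Their part in its values of Cish, Socs2 and Bcl6 was not tested. Bcl6, a repressor lowered by STAT5 in mouse liver, had 22.0, 26.9 and 58.3 CPM in DKD and 23.3, 166 and 9.82 CPM in control kidneys, and the library with the least Bcl6 in each group was also the one with the most Cish. Their adjusted p-values between groups were 0.835, 0.437 and 0.682 with edgeR. The prolactin receptor Prlr likewise overlapped between groups, at 36.3, 94.9 and 96.8 CPM in DKD and 50.7, 22.9 and 60.0 CPM in control kidneys.

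Lifr, the receptor chain for the ligands Lif and Clcf1, had 106, 59.4 and 58.8 CPM in DKD and 70.9, 66.9 and 76.8 CPM in control kidneys; DKD replicate 1, with its hepatocyte transcripts, was the highest, and their part in that value was not tested.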
